A study of Mus musculus with 16 samples.

Results

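The genes described here mark blood and bone marrow cells: neutrophils and their precursors, monocytes and macrophages, B cells, T cells and red cell precursors. They were read in RNA of the nucleus pulposus, the soft centre of the discs between the vertebrae, as a record of such cells on each array. The 30 genes were chosen by name, as known markers of these cells, and each was found through the gene symbol of its probe set. Earlier results of these data were known when they were chosen, so the list is not independent of the data. Of the 30, 27 had a probe set, 1 each, among 22206 probe sets for 19505 named genes. The 3 others, the macrophage gene Cd68 and the globin genes Hbb-bs and Hba-a1, have no value here.

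The study compared 4 groups of mice, with 4 arrays a group and 16 in all. Controls carried the floxed HIF-2α gene alone (HIF-2αf/f, labelled CT). The conditional knockouts (cKO) carried the same floxed gene and a Cre recombinase (FoxA2Cre; HIF-2αf/f), so the floxed alleles were common to all groups. FoxA2 is a gene of the notochord, the embryonic rod that gives rise to the nucleus pulposus, and it drives the Cre here. Each genotype was sampled at an age of 6 months and of 14 months. The tissue was dissected by hand, and whether each array holds RNA of 1 mouse is not stated, so p-values measure the spread between these arrays. The comparisons ask how HIF-2α deletion and age changed the tissue.

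The healthy nucleus pulposus has no blood vessels and no marrow, while the vertebral bodies on either side of it hold red marrow. Marrow contains neutrophils at every stage of maturation. Early precursors make the proteins of the primary granules, and later stages make those of the secondary and tertiary granules and, in the cytosol, the S100a8 and S100a9 pair. Red cell precursors switch on the genes of heme synthesis and of the red cell membrane, and B cell precursors carry a surrogate antigen receptor before the mature one.

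The dissected tissue carried the marks of nucleus pulposus on every array: the mean of 11 measured nucleus pulposus and notochord genes lay between 13.06 and 13.69 (log2), and that of 7 cartilage matrix genes between 10.31 and 11.46. The notochord gene Tbxt had no probe set. Epas1, which encodes HIF-2α, was not lower on the arrays labelled cKO (means at 6 months of 9.51 ± 1.28 against 10.38 ± 0.41 and at 14 months of 10.69 ± 0.91 against 12.01 ± 0.36, controls first, SD, n = 4). The sources used here do not say where its probes lie relative to the deleted part, so it does not check the labels. The Y-linked genes placed 0 male arrays among the 6-month controls, 3 among the 6-month cKO (arrays 2, 3 and 4), 1 among the 14-month controls and 3 among the 14-month cKO.

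Signal over background is not given for these arrays. As a yardstick chosen after the data were seen, 1414 probe sets of olfactory and vomeronasal receptors were used, genes of sensory neurons that disc tissue should hardly express. Their median per array ran from 5.01 to 5.59 at 6 months and from 4.51 to 5.02 at 14 months, and their 95th percentile from 5.96 to 7.98 over all arrays. Probe sets differ in how they respond, so this marks a level and not a limit of detection. Csf1r lay above the 95th percentile on 16 of 16 arrays and Slc4a1 on 15. S100a9 did so on 5 arrays, Ngp and S100a8 on 4, Lyz2 on 3, Mpo, Lcn2 and Retnlg on 2, and Elane, Ltf and Alas2 on 1. For these last 10 genes all such arrays came from 6-month mice. The other 15 members never passed it. Ctsg, Cd79a, Cd79b, Vpreb3 and Klf1 lay below the receptor median on all 16 arrays, and Camp on 15.

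The widest ranges over the arrays were those of 5 neutrophil genes, S100a8 (10.13, log2), Ngp (9.69), S100a9 (8.99), Retnlg (7.83) and Lcn2 (7.38), and most of that variation lay on a pair of arrays. The neutrophil genes Prtn3 (0.71) and Ctsg (1.0) had the narrowest ranges of the 27. On 6-month cKO arrays 3 and 4, 11 of 27 members (40.7%) lay above every one of the 14 other arrays: Elane, Mpo, Ngp, S100a8, S100a9, Ltf, Lcn2, Retnlg, Lyz2, Ptprc and Alas2. Over all probe sets the same was true of 283 of 22206 (1.27%). The pair was singled out because neutrophil genes were highest on it, so the larger share of the members follows in part from that choice. Array 4 held the highest value of 13 members and array 3 of 4 more. The mean of the 11 neutrophil members was 8.60 and 9.25 on these arrays, 5.51 and 5.22 on 6-month cKO arrays 1 and 2, and 6.32, 4.75, 5.46 and 6.33 on the 6-month controls. At 14 months it lay between 4.56 and 4.93 on all arrays. The pair was male by its Y-linked genes, as was 6-month cKO array 2, and the part of sex was not tested within this group.

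**Figure D1:**
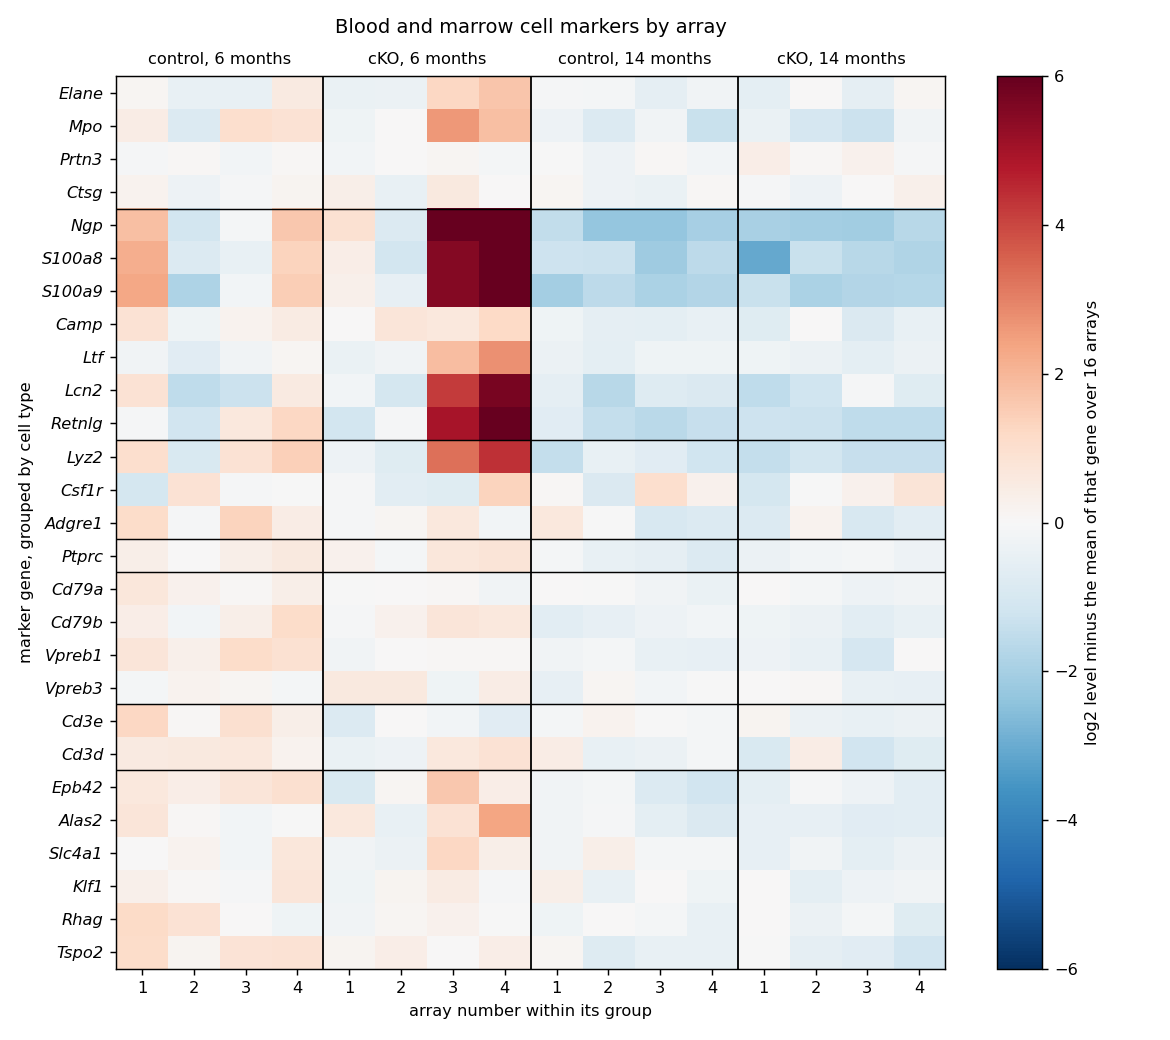
Level of each of the 27 measured marker genes (rows, grouped by cell type) on each of the 16 arrays (columns, grouped by genotype and age), as the log2 level minus that gene's mean over the 16 arrays. The colour scale ends at -6 and 6, and the strongest colours lie on 6-month cKO arrays 3 and 4 in the rows of Ngp, S100a8, S100a9, Lcn2 and Retnlg.

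The promoters of genes in this cluster are shown for sequence shared among members that were high on the same arrays. Each window runs from 250 bases before to 50 after the start site, on the gene's own strand, from RefSeq on GRCm38.p6. Windows were found for 23 of the 27 members. C/EBP factors are master regulators of granulocyte genes, and a C/EBP motif (TTNNGCAA, searched on both strands) is in capitals in the first lines. Ngp (chr9:110419558-110419857, plus strand) holds it 138 and 11 bases before the start site, Ltf (chr9:111019042-111019341, plus strand) 75 before, and S100a9 (chr3:90695672-90695971, minus strand) 236 before. S100a8 (chr3:90668821-90669120, plus strand), the partner of S100a9, holds no match to these letters. Alas2 (chrX:150547167-150547466, plus strand) is shown with the GATA motif AGATAA (both strands) in capitals, 86 bases before the start, since GATA1 drives red cell genes.
Ngp: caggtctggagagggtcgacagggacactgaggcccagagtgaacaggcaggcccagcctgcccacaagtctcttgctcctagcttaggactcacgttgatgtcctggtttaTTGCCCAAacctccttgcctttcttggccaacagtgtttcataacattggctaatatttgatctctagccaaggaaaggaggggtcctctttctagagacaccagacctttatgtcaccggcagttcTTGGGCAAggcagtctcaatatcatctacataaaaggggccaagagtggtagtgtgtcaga
Ltf: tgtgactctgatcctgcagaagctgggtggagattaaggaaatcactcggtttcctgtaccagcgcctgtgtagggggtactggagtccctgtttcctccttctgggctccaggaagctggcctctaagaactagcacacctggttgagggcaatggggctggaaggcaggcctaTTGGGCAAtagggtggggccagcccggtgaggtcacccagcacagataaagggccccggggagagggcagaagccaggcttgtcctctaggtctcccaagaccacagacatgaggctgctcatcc
S100a9: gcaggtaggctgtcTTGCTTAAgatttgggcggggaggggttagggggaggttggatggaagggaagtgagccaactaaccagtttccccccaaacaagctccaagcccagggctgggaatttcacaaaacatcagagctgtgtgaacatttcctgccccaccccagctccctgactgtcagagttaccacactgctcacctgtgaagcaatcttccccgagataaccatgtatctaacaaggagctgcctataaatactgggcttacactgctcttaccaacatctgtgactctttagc
S100a8: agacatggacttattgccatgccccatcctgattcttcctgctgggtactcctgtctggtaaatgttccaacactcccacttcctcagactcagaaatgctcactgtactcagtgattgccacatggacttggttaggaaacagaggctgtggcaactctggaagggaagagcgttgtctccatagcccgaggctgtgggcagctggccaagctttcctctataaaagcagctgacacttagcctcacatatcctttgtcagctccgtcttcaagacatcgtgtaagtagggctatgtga
Alas2: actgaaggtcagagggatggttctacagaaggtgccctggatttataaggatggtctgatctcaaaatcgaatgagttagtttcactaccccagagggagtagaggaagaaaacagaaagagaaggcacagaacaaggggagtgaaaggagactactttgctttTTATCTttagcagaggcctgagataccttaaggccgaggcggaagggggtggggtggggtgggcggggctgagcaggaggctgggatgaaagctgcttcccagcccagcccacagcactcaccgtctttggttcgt

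Of the 11 neutrophil members 5 held the C/EBP letters (Lcn2, Ltf, Ngp, Retnlg and S100a9), against 10.8% of 32851 RefSeq windows of the same length. The GATA letters were in 2 of 5 erythroid members with a window (Alas2 and Epb42) and in 11.2% of all windows. They also occurred in Ltf, S100a9 and Ptprc, without overlapping a C/EBP match. These are matches of letters, with no measurement of binding.

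Primary granule genes, made by the earliest neutrophil precursors, varied little over the arrays except for Mpo and Elane. Myeloperoxidase, which makes hypochlorous acid, is encoded by Mpo. Mpo lay at 6.86, 5.59, 7.43 and 7.30 (log2, arrays 1 to 4) in 6-month controls and at 6.17, 6.44, 9.03 and 8.21 in 6-month cKO. The values 6.13, 5.61, 6.23 and 5.07 belonged to 14-month controls and 6.02, 5.42, 5.12 and 6.22 to 14-month cKO. Arrays 3 and 4 of the 6-month cKO stood above the rest, and the 6-month controls overlapped with the 14-month groups only through array 2. Elane encodes neutrophil elastase. Elane lay at 5.54, 4.97, 4.98 and 5.93 in 6-month controls and at 5.02, 5.07, 6.65 and 7.05 in 6-month cKO. The values 5.33, 5.30, 4.87 and 5.17 belonged to 14-month controls and 4.80, 5.41, 4.85 and 5.52 to 14-month cKO. The same pair of cKO arrays was highest, and the other 14 arrays lay between 4.80 and 5.93. Prtn3 (proteinase 3) kept within 5.06 to 5.77 on all arrays. Ctsg (cathepsin G) kept within 3.24 to 4.24, below the receptor median throughout.

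Genes of the later granules and the cytosol spread most. Ngp encodes a cathelicidin-related protein of the secondary granules. Ngp lay at 7.94, 5.04, 6.00 and 7.75 in 6-month controls and at 7.04, 5.33, 12.41 and 13.50 in 6-month cKO. The values 4.65, 3.81, 3.82 and 4.13 belonged to 14-month controls and 4.20, 4.09, 4.04 and 4.46 to 14-month cKO. On 6-month cKO arrays 3 and 4 it was far above all others, 6-month control arrays 1 and 4 and cKO array 1 were intermediate, and all 14-month arrays lay below every 6-month array. Its mean at 6 months was 6.68 ± 1.40 for controls and 9.57 ± 4.00 for cKO, and at 14 months 4.10 ± 0.39 and 4.20 ± 0.19 (SD, n = 4).

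S100a8 and S100a9 together form calprotectin, which binds calcium, zinc and manganese and fills the neutrophil cytosol. S100a8 lay at 8.77, 5.75, 6.14 and 7.93 in 6-month controls and at 6.98, 5.46, 12.10 and 13.65 in 6-month cKO. The values 5.33, 5.28, 4.47 and 5.0 belonged to 14-month controls and 3.52, 5.27, 4.90 and 4.78 to 14-month cKO. Here too 6-month cKO arrays 3 and 4 were highest, then control arrays 1 and 4. S100a9 lay at 9.43, 5.28, 6.96 and 8.60 in 6-month controls and at 7.43, 6.63, 12.66 and 14.06 in 6-month cKO. The values 5.07, 5.55, 5.22 and 5.38 belonged to 14-month controls and 5.77, 5.22, 5.37 and 5.44 to 14-month cKO. The order of the arrays at 6 months was close to that of S100a8, and the 14-month arrays lay close together. Lcn2 encodes lipocalin 2, which binds bacterial iron carriers. Lcn2 lay at 6.93, 4.56, 4.78 and 6.62 in 6-month controls and at 5.92, 5.02, 10.28 and 11.77 in 6-month cKO. The values 5.52, 4.39, 5.28 and 5.20 belonged to 14-month controls and 4.55, 4.89, 5.98 and 5.35 to 14-month cKO. Control arrays 1 and 4 again lay between the high pair and the rest, while the 14-month arrays overlapped with the lower 6-month ones.

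Retnlg encodes a small resistin-like protein of granulocytes. Retnlg lay at 5.43, 4.35, 6.12 and 6.75 in 6-month controls and at 4.40, 5.44, 10.43 and 11.69 in 6-month cKO. The values 4.82, 4.08, 3.86 and 4.10 belonged to 14-month controls and 4.26, 4.18, 3.96 and 3.98 to 14-month cKO. Its 14-month levels lay below the receptor median on every array, and on 6-month cKO array 1 and control array 2 it was as low. Ltf encodes lactoferrin, an iron-binding protein of the secondary granules. Ltf lay at 4.38, 3.93, 4.38 and 4.74 in 6-month controls and at 4.21, 4.39, 6.46 and 7.37 in 6-month cKO. The values 4.24, 4.03, 4.33 and 4.36 belonged to 14-month controls and 4.37, 4.26, 4.03 and 4.24 to 14-month cKO. Apart from 6-month cKO arrays 3 and 4 it lay below the receptor median on every array. Camp encodes the cathelicidin antimicrobial peptide. Camp lay at 5.09, 3.97, 4.44 and 4.71 in 6-month controls and at 4.26, 4.96, 4.88 and 5.42 in 6-month cKO. The values 3.97, 3.69, 3.63 and 3.80 belonged to 14-month controls and 3.49, 4.24, 3.35 and 3.80 to 14-month cKO. It was low throughout, with 6-month arrays mostly above 14-month ones.

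**Figure D2:**
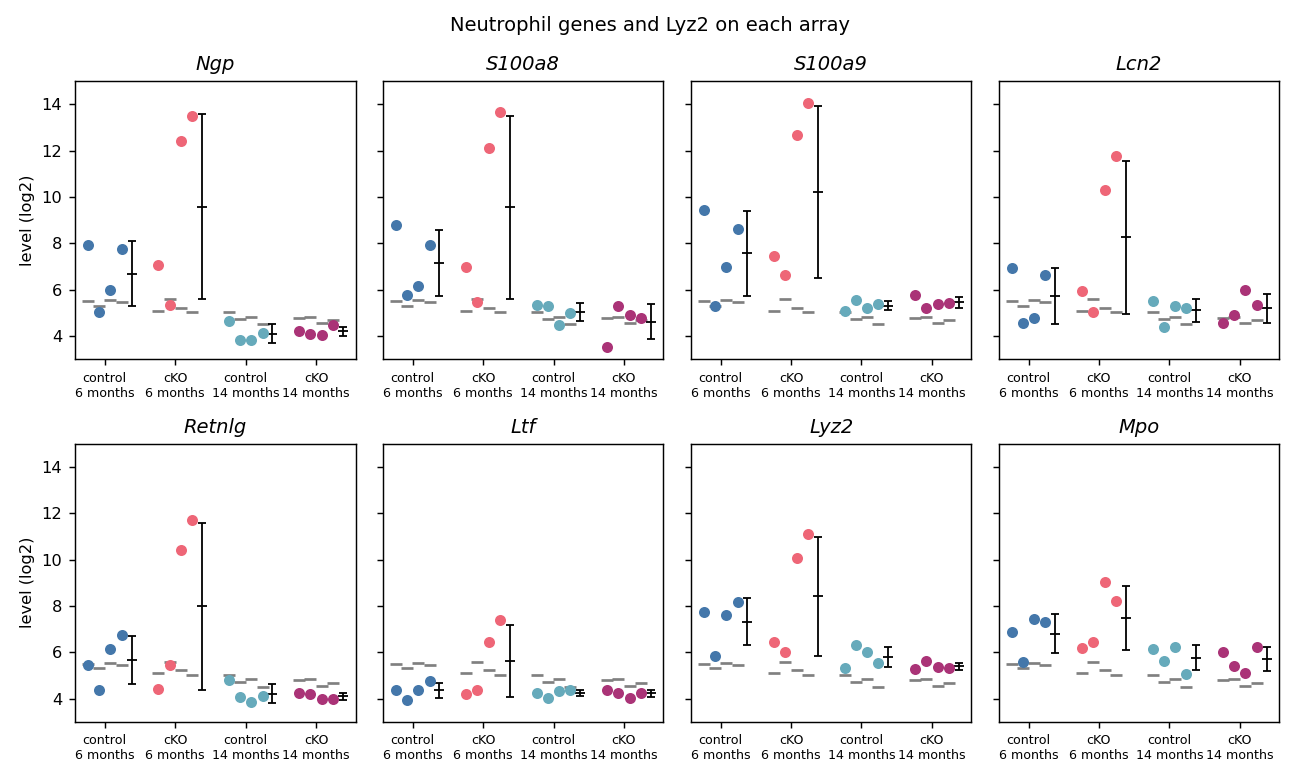
Log2 level of 8 genes on each array (points, arrays 1 to 4 from left to right in each group), with the group mean and SD (bars, n = 4) and the median of 1414 receptor probe sets on the same array (grey dashes). The points of 6-month cKO arrays 3 and 4 stand above all others in every panel, and the 14-month points lie together at low levels.

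Among monocyte and macrophage genes, Lyz2 followed the neutrophil genes and the others did not. Lyz2 encodes lysozyme, made by macrophages and by neutrophils alike. Lyz2 lay at 7.72, 5.82, 7.59 and 8.16 in 6-month controls and at 6.45, 6.02, 10.06 and 11.11 in 6-month cKO. The values 5.31, 6.30, 6.03 and 5.54 belonged to 14-month controls and 5.29, 5.62, 5.36 and 5.34 to 14-month cKO. The 6-month cKO pair was highest, and 3 of 4 control arrays at 6 months lay above all 14-month arrays. Csf1r encodes the receptor for macrophage colony-stimulating factor. Csf1r lay at 9.14, 11.05, 10.10 and 10.13 in 6-month controls and at 10.11, 9.52, 9.47 and 11.49 in 6-month cKO. The values 10.23, 9.30, 11.17 and 10.45 belonged to 14-month controls and 9.13, 10.17, 10.42 and 10.94 to 14-month cKO. Its groups overlapped throughout, and it was high on every array. Adgre1 encodes an adhesion receptor on the surface of macrophages. Adgre1 lay at 6.58, 5.40, 6.83 and 5.93 in 6-month controls and at 5.41, 5.58, 6.11 and 5.31 in 6-month cKO. The values 6.11, 5.45, 4.53 and 4.67 belonged to 14-month controls and 4.64, 5.69, 4.49 and 4.85 to 14-month cKO. Of the 6-month cKO pair, array 3 lay within the range of the controls and array 4 just below it. Ptprc encodes CD45, the phosphatase on the surface of all leukocytes. Ptprc lay at 6.19, 5.83, 6.16 and 6.39 in 6-month controls and at 6.06, 5.68, 6.51 and 6.58 in 6-month cKO. The values 5.69, 5.39, 5.30 and 4.99 belonged to 14-month controls and 5.48, 5.64, 5.69 and 5.49 to 14-month cKO. The 6-month cKO pair was highest by a small margin, and all 6-month arrays but cKO array 2 lay above every 14-month array.

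B cell genes were low and did not follow the neutrophil genes. Cd79a and Cd79b encode the signalling chains of the B cell antigen receptor. Cd79a lay at 4.94, 4.53, 4.34 and 4.65 in 6-month controls and at 4.27, 4.28, 4.33 and 4.07 in 6-month cKO. The values 4.31, 4.26, 4.07 and 3.89 belonged to 14-month controls and 4.30, 4.14, 3.99 and 4.09 to 14-month cKO. The 6-month controls lay above every other group. Cd79b lay at 4.20, 3.65, 4.15 and 4.90 in 6-month controls and at 3.73, 4.05, 4.52 and 4.42 in 6-month cKO. The values 3.19, 3.33, 3.51 and 3.63 belonged to 14-month controls and 3.52, 3.47, 3.19 and 3.35 to 14-month cKO. Both 6-month groups lay above both 14-month groups. Vpreb1 encodes part of the surrogate light chain of the pre-B cell receptor. Vpreb1 lay at 6.73, 6.28, 7.11 and 6.91 in 6-month controls and at 5.80, 6.00, 6.07 and 6.06 in 6-month cKO. The values 5.80, 5.88, 5.55 and 5.50 belonged to 14-month controls and 5.67, 5.56, 4.98 and 6.03 to 14-month cKO. Each 6-month control array lay above each array of the other groups. Vpreb3, of B cell precursors, kept within 3.79 to 4.88.

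Cd3e and Cd3d encode chains of the CD3 complex that signals for the T cell receptor. Cd3e lay at 6.56, 5.39, 6.26 and 5.66 in 6-month controls and at 4.47, 5.32, 5.13 and 4.60 in 6-month cKO. The values 5.20, 5.50, 5.29 and 5.17 belonged to 14-month controls and 5.44, 4.96, 4.87 and 4.97 to 14-month cKO. In the 6-month cKO every array lay below every 6-month control array. Cd3d lay at 6.41, 6.47, 6.51 and 6.08 in 6-month controls and at 5.47, 5.54, 6.50 and 6.75 in 6-month cKO. The values 6.29, 5.40, 5.50 and 5.75 belonged to 14-month controls and 4.97, 6.29, 4.73 and 5.15 to 14-month cKO. For Cd3d the genotypes overlapped at 6 months, with the cKO pair of arrays 3 and 4 level with the controls or above them.

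Red cell genes differed among themselves in which arrays were high. Alas2 encodes the erythroid enzyme of the first step of heme synthesis. Alas2 lay at 6.39, 5.75, 5.49 and 5.62 in 6-month controls and at 6.30, 5.21, 6.52 and 8.03 in 6-month cKO. The values 5.43, 5.59, 5.09 and 4.80 belonged to 14-month controls and 5.17, 5.17, 4.97 and 5.02 to 14-month cKO. Its highest values came from 6-month cKO arrays 4 and 3. Epb42 encodes protein 4.2 of the red cell membrane skeleton. Epb42 lay at 5.97, 5.73, 6.04 and 6.31 in 6-month controls and at 4.40, 5.45, 6.96 and 5.74 in 6-month cKO. The values 5.12, 5.21, 4.52 and 4.17 belonged to 14-month controls and 4.74, 5.28, 5.02 and 4.72 to 14-month cKO. The 6-month cKO arrays spread above and below all controls of that age. Tspo2 encodes an erythroid relative of the translocator protein. Tspo2 lay at 6.93, 5.96, 6.65 and 6.69 in 6-month controls and at 5.96, 6.23, 5.83 and 6.20 in 6-month cKO. The values 5.91, 5.04, 5.38 and 5.36 belonged to 14-month controls and 5.78, 5.28, 5.11 and 4.64 to 14-month cKO. Levels of the 6-month controls lay above all 14-month arrays.

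Slc4a1, which encodes the anion exchanger band 3, lay between 7.67 and 9.49. Klf1, an erythroid transcription factor, lay between 4.07 and 5.40, and Rhag, of the Rh complex of the red cell membrane, between 4.12 and 5.97. The globin genes, the most abundant of red cells, have no probe set here.

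**Figure D3:**
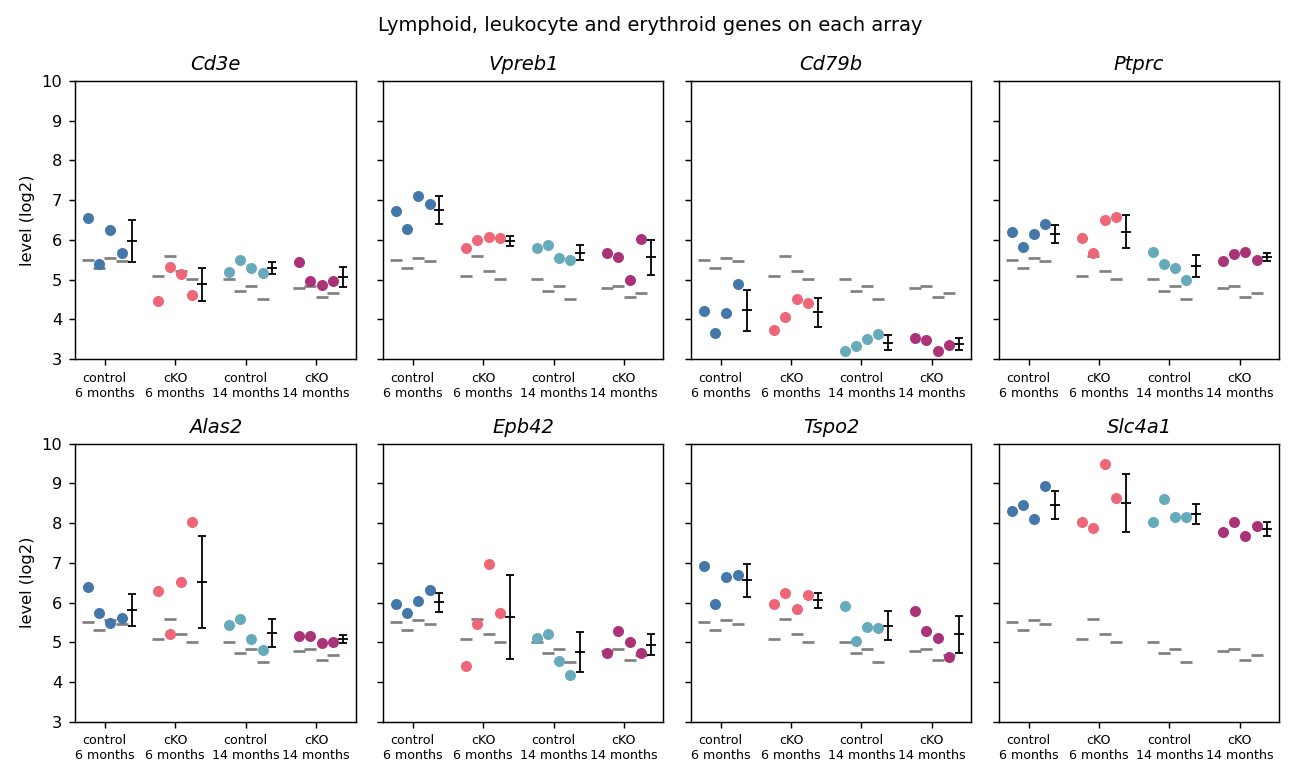
Log2 level of 8 leukocyte, lymphoid and erythroid genes on each array (points, arrays 1 to 4 from left to right in each group), with the group mean and SD (bars, n = 4) and the receptor median of the same array (grey dashes). Cd3e and Vpreb1 of the 6-month cKO lie below the 6-month controls, and Cd79b lies below the receptor median on every array.

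At 6 months 1 of 27 members fell in cKO against control and none rose. Calls are limma tests with a Benjamini-Hochberg adjusted p below 0.05, adjusted over all 22206 probe sets, of which 4.66% were called, 3.45% higher and 1.21% lower. Cd3e fell by 1.09 (log2, SE 0.26, adjusted p = 0.0236), 2.13-fold. It lay below the receptor median on every 6-month cKO array and on no 6-month control array, so its fold depends on where the array floor lies. The call was lost with sex as a covariate (-1.25, adjusted p = 0.126) and with only the 6-month arrays in the fit (-1.09, 0.088), at a difference as large as before or larger. It was also lost without control array 1 (0.0744), control array 3 (0.0778), cKO array 1 (0.0517) or cKO array 4 (0.0831). Vpreb1 was lower by a similar pattern without passing the test (-0.78, SE 0.23, adjusted p = 0.0577), and passed it after quantile normalization (0.0418). Groups did not overlap for Cd79a, Vpreb1 and Cd3e, all lower in cKO, and for 4.1% of all probe sets in that direction.

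The neutrophil genes had the largest differences in means at 6 months, and none passed the test. Ngp differed by 2.89 (SE 1.23, adjusted p = 0.198), S100a9 by 2.63 (SE 1.20, 0.234), Lcn2 by 2.53 (SE 1.04, 0.183), S100a8 by 2.40 (SE 1.24, 0.297), Retnlg by 2.33 (SE 1.09, 0.247) and Ltf by 1.25 (SE 0.48, 0.154), all log2 with limma's adjusted p. The 6-month controls held 0 male arrays and the 6-month cKO 3. With sex as a covariate the differences were 1.98 for Ngp, 1.65 for S100a9, 1.98 for Lcn2, 1.65 for S100a8, 1.12 for Retnlg and 0.68 for Ltf, and the share of all probe sets called went from 4.66% to 0.275%. The median over the 11 neutrophil members was 1.25, against -0.06 over all probe sets. Without cKO arrays 3 and 4 that median was -0.31 and Ngp differed by -0.50, so the direction turned with this pair. Leaving out cKO array 2 alone brought Ngp (adjusted p = 0.0264), S100a8, Ltf and Lcn2 past the test as higher. Leaving out cKO array 1 brought Ltf and Retnlg past it, and Cd3e failed it. Both of these fits keep cKO arrays 3 and 4, and shares over all probe sets were not computed for such fits.

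Of the neighbouring marker lists, none held a called gene at 6 months among 20 measured further granulocyte genes, 18 of monocytes and macrophages, 13 each of B cells, T and NK cells and red cells, and 6 of megakaryocytes. The mean of the further granulocyte genes was nonetheless highest on cKO arrays 3 and 4 (5.91 and 6.40, against 5.09 to 5.60 on the other 6-month arrays). That of the further monocyte and macrophage genes was highest there too (5.34 and 5.67, against 4.85 to 5.32). Means of the B cell genes (4.70 and 4.70) and megakaryocyte genes (5.77 and 5.49) on this pair lay within the range of the other 6-month arrays or below it. Osteoclast genes (5.30 and 5.50) and endothelial genes (5.05 and 4.88) lay within that range. The nucleus pulposus genes did as well (13.58 and 13.48).

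At 14 months none of the 27 members passed the test between genotypes (0% of all probe sets were called). The adjusted p of every member was 0.999 in limma, and 0 members had an unadjusted p under 0.05. No member had groups that did not overlap, against 1.26% of all probe sets higher and 1.33% lower in cKO. Differences ran from -0.45 (Cd3d) to 0.27 (Prtn3), with a median of -0.06. For Ngp the difference was 0.10 with an SE of 1.23, a spread carried by the shared estimate from the 6-month cKO. The 14-month cKO arrays alone kept Ngp within 4.04 to 4.46 and the 14-month controls within 3.81 to 4.65.

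With age, 9 of 27 members fell in controls and none rose, against 17.3% of all probe sets called lower, 16.8% called higher and 34.1% in either direction. This comparison and the one in cKO use the 6-month arrays that also enter the genotype comparison, so they are not independent of it. The 9 were Vpreb1 (-1.08, SE 0.23, adjusted p = 0.00163), Tspo2 (-1.14, SE 0.26, 0.00292), Ptprc (-0.80, SE 0.22, 0.00955), Cd79b (-0.81, SE 0.24, 0.0157), Epb42 (-1.26, SE 0.38, 0.0162), Camp (-0.78, SE 0.27, 0.0326), Adgre1 (-0.995, SE 0.37, 0.043), Cd79a (-0.48, SE 0.18, 0.0447) and Cd3e (-0.68, SE 0.26, 0.0489). By cell type, 3 of 4 B cell genes, 2 of 6 erythroid genes and 1 of 7 later neutrophil genes fell. Of cells not of the blood, 3 of 8 endothelial genes (Cdh5, Emcn and Tie1) and 3 of 9 of osteoblasts and osteocytes (Sp7, Dmp1 and Ifitm5) fell. So did 2 of 7 of cartilage matrix (Col2a1 and Hapln1) and 1 of 8 of osteoclasts. Of 11 nucleus pulposus genes 2 fell and 4 rose, and of 10 skeletal muscle genes 0 fell and 2 rose. With receptor medians set equal 0 endothelial and 0 osteoblast genes were called lower, and 4 of each list higher. In cKO 1 gene each of endothelium, osteoblasts and cartilage matrix fell (Cdh5, Sp7 and Hapln1), and the bone gene Ibsp rose. There 2 nucleus pulposus genes fell and 1 rose. Groups did not overlap, with 14 months lower, for 8 members (Ngp, S100a8, Ptprc, Cd79a, Cd79b, Vpreb1, Epb42 and Tspo2) and for 14.5% of all probe sets.

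The olfactory and vomeronasal receptors moved with these falls. Their median change with age in controls was -0.67, the median of the 27 members was -0.68, and that of all probe sets was -0.10. Of the receptors 608 (43%) were called lower and 0 higher. When each array was shifted to one receptor median, none of the 9 falls was called, and 13 of the 27 members turned from lower to higher, Cd79a (0.20) and Cd3e (0.008) of the 9 among them. The median of the members was then 0.01, and Prtn3 was called higher (0.60, adjusted p = 0.0239). Over all probe sets 4.08% were then called lower and 43.5% higher. What part of the falls is shared with this drop of the lowest signals was not tested further. In tissue of mixed cells, fewer cells of a type and less RNA per cell cannot be told apart.

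Neutrophil genes had the largest age differences in controls without passing the test in the fit of 16 arrays. Ngp was 2.58 lower at 14 months (SE 1.23, adjusted p = 0.111), S100a9 2.26 lower (limma adjusted p = 0.151) and S100a8 2.13 lower (0.191). The SE was set in part by the spread among the 6-month cKO arrays. Without 6-month cKO arrays 3 and 4 the SE of Ngp was 0.52 and its adjusted p was 0.00152. Then 13 members were called lower, against 17% of all probe sets called lower and 16.5% higher. S100a9 (0.00875), S100a8 (0.00915), Lyz2 (0.00636), Retnlg (0.0108) and Mpo (0.0432) were then among the 13, while Cd79a (0.0561) and Cd3e (0.0581) were not. The pair was left out because neutrophil genes were highest on it, so the smaller SE of these genes follows from that choice.

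In cKO, 13 of 27 members fell with age and none rose, against 10.2% of all probe sets called lower, 12.7% called higher and 22.9% in either direction. All 7 genes of the later neutrophil granules and cytosol fell. Ngp fell by 5.37 (SE 1.23, adjusted p = 0.00467), 41.4-fold between the group means. S100a8 fell by 4.93 (SE 1.24, adjusted p = 0.0085) and S100a9 by 4.75 (SE 1.20, adjusted p = 0.00891). Retnlg fell by 3.90 (adjusted p = 0.0161), Lcn2 by 3.06 (0.0416), Ltf by 1.38 (0.046) and Camp by 1.16 (0.00526). The other 6 were Lyz2 (-3.01, adjusted p = 0.0132), Mpo (-1.77, 0.0229), Alas2 (-1.43, 0.0147), Tspo2 (-0.85, 0.0249), Cd79b (-0.80, 0.0245) and Ptprc (-0.63, 0.0448), all by limma. The SE of each gene pools all 4 groups. For Ngp the SD was 3.995 among the 6-month cKO and 0.187 among the 14-month cKO, so its SE understates the spread of the groups compared. S100a8, S100a9, Retnlg and Lcn2 were alike, with 6-month cKO SDs of 3.943, 3.713, 3.607 and 3.285. With only the cKO arrays in the fit, Retnlg, Lcn2, Ltf and Ptprc were not called. Ngp, Retnlg, Ltf, Camp and Cd79b lay below the receptor median on every 14-month cKO array, and Cd79b on every 6-month array as well, so their folds depend on where the array floor lies. Groups did not overlap, with 14 months lower, for 9 members (Ngp, S100a8, S100a9, Camp, Retnlg, Lyz2, Cd79b, Alas2 and Tspo2) and for 11.4% of all probe sets.

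Without 6-month cKO arrays 3 and 4, 2 members were called lower, Ngp (-1.99, adjusted p = 0.0435) and Vpreb3 (0.0357), and the median of the 27 members went from -0.78 to -0.30. Over all probe sets the share called lower went from 10.2% to 6.9%, with fewer arrays. Of the 12 calls lost, 2 kept a change within 1.5 times of the one before, Tspo2 (-0.85, then -0.89, adjusted p = 0.0798) and Camp (-1.16, then -0.89, 0.071). The change of the other 10 shrank by more, as for Lcn2 (-3.06, then -0.28) and Ltf (-1.38, then -0.075). Without array 3 alone 7 were called and without array 4 alone also 7. Shares over all probe sets were not computed for fits without 1 array. Ngp, S100a8, S100a9, Camp and Alas2 were called in each of these 2 fits. Leaving out 14-month cKO array 3 gave 7 calls and 14-month cKO array 4 gave 8. With the receptor median of each array set equal, 5 members stayed lower: Ngp (-4.86, adjusted p = 0.00589), S100a8 (0.0111), S100a9 (0.0117), Retnlg (0.0226) and Lyz2 (0.0272). Prtn3 (0.0137) and Cd3e (0.0326) were then called higher. Over all probe sets 30.8% were then called higher and 3.35% lower. The receptors themselves had a median change of -0.51 in this comparison, with 22.8% of them called.

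**Figure D4:**
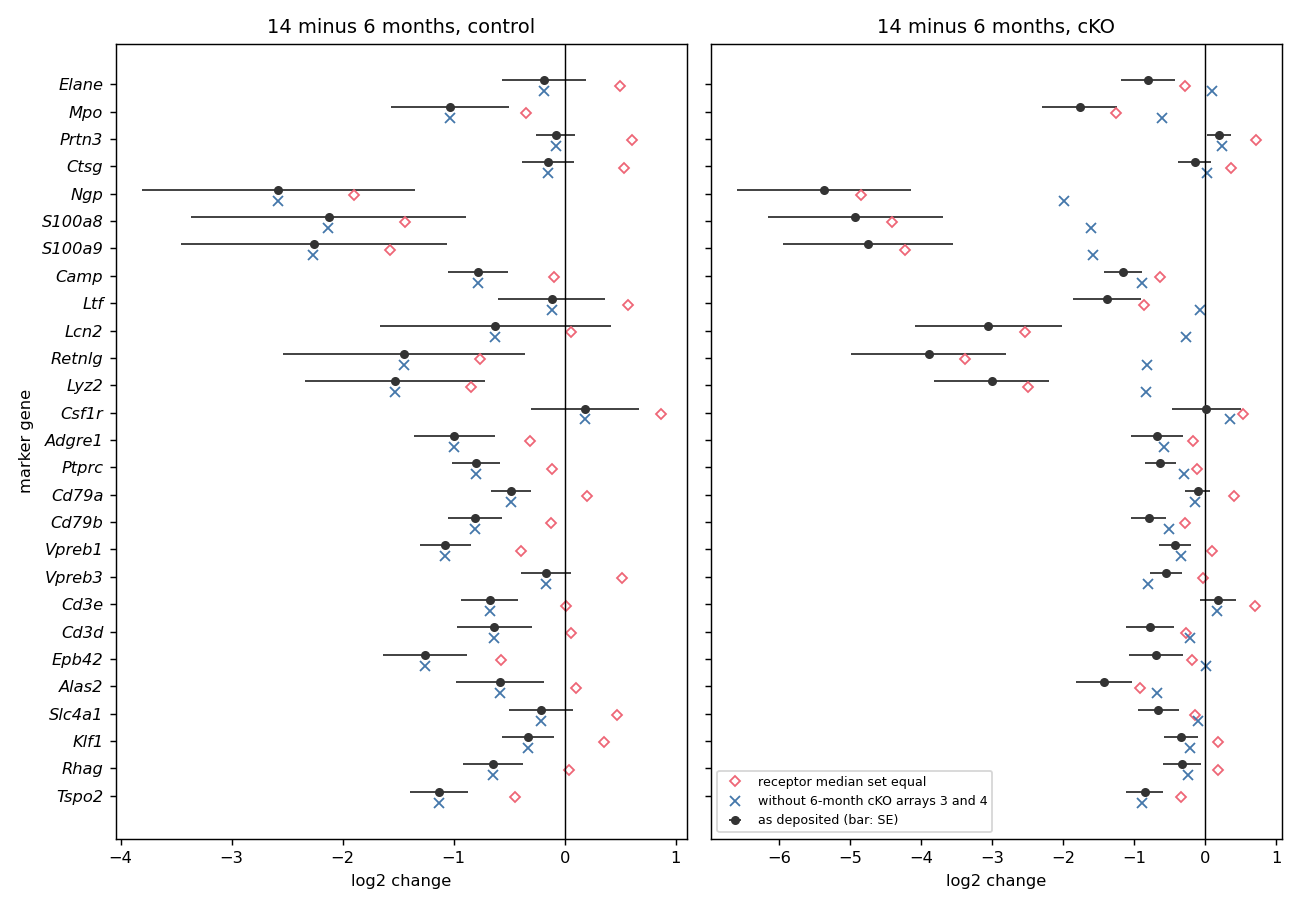
Change in log2 level from 6 to 14 months of the 27 marker genes in controls (left) and cKO (right), from limma on the values as deposited (circles, bars are 1 SE), without 6-month cKO arrays 3 and 4 (crosses), and with the receptor median of every array set equal (diamonds). In cKO the changes of Ngp, S100a8, S100a9, Lcn2 and Retnlg are largest, and their crosses lie nearer to 0.

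Further markers of the same cells were read against the 17.3% of all probe sets called lower with age in controls and the 10.2% in cKO. With receptor medians set equal, 43.5% of all probe sets were called higher in controls and 30.8% in cKO. Single genes called higher in that setting, here and in the next paragraphs, are read beside these shares. Of 20 other granulocyte genes, 7 fell in controls (35%) and 8 in cKO (40%). Chil3, a chitinase-like protein of myeloid cells, fell by 2.35 in cKO (SE 0.43, adjusted p = 0.000959), and still by 1.23 without arrays 3 and 4 (0.0097). Csf3r, the receptor for granulocyte colony-stimulating factor, fell by 0.86 in controls (SE 0.30, 0.0324) and by 1.51 in cKO (SE 0.30, 0.00162). Cybb, a subunit of the phagocyte oxidase, fell by 1.79 in controls (SE 0.51, 0.0115) and by 1.83 in cKO (SE 0.51, 0.0149). With receptor medians set equal, Chil3 (0.00579) and Csf3r (0.0163) held in cKO. Of the 7 falls in controls none did, and Gfi1 and Pglyrp1 were called higher.

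Of 18 other monocyte and macrophage genes, 4 fell in each genotype (22.2%). With receptor medians set equal 0 of the 18 were called lower in controls and 4 higher (Cd14, Ly86, Aif1 and Cd163), and in cKO Cd14 and Cd163 were called higher. Spi1, which encodes the myeloid transcription factor PU.1, fell by 1.46 in controls (SE 0.43, adjusted p = 0.0147) and by 2.59 in cKO (SE 0.43, 0.000445), and in cKO also without arrays 3 and 4 (-1.65, 0.00114) and with receptor medians set equal (-2.07, 0.00283). Of 8 genes of eosinophils, basophils and mast cells, 4 fell in controls and 1 in cKO. Il5ra, the receptor chain for interleukin 5, fell by 1.60 in controls (SE 0.26, adjusted p = 0.000227) and by 1.71 in cKO (SE 0.26, 0.00023), and both held with receptor medians set equal (0.00711 and 0.00193).

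Of 13 other B cell genes, 2 fell in controls (15.4%; Ebf1, -0.59, and Rag2, -0.75) and none in cKO, shares below those of all probe sets. Of 13 other genes of T and NK cells, 2 fell in controls (15.4%) and 3 in cKO (23.1%), among them Cd4 (-0.86 in each). Of 13 other erythroid genes, 4 fell in controls (30.8%) and 3 in cKO (23.1%). Rhd fell by 0.89 in controls (SE 0.19, adjusted p = 0.00185), and Trim10 fell by 1.06 in controls (0.00493) and by 0.97 in cKO (0.0134). None of these falls of lymphoid and erythroid genes was called with receptor medians set equal. Other genes of these lists were then called higher: Dntt, Cd37, Mzb1, Cd5, Cd8a and Zap70 in controls, and Dntt, Mzb1, Cd5, Car1 and Nfe2 in cKO. Among 6 genes of heme synthesis after the step of Alas2, Fech, which inserts the iron, rose by 0.89 in controls (SE 0.21, adjusted p = 0.00358) and by 0.76 in cKO (SE 0.21, 0.0146). Fech is active in every cell with mitochondria. Of 6 megakaryocyte and platelet genes, 3 fell in controls, and Gp9, of the platelet receptor for von Willebrand factor, held with receptor medians set equal (-1.30, SE 0.20, adjusted p = 0.000127, then 0.0227). None of 8 blood progenitor genes passed the test at either age or in either genotype.

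The genotype by age term, the difference between the age changes of the genotypes, was called for 0 of 27 members and for 0.0766% of all probe sets (0.0045% higher, 0.0721% lower). The smallest adjusted p of limma was that of Cd3e (0.86, SE 0.36, adjusted p = 0.494). For Ngp the term was -2.79 with an SE of 1.74 (adjusted p = 0.671). So the larger number of falls in cKO than in controls was not shown to be a difference between genotypes. Without 6-month cKO arrays 3 and 4 the median of the term over the 11 neutrophil members went from -1.26 to 0.35.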

How the data were processed

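The authors' deposited table holds 1 log2 value per probe set and array, between 2.46 and 19.93 with 0 missing, as read from the values. Biotin labelling of total RNA followed Affymetrix's procedure, per the labels' protocols. The sources used here name no software, background correction or summarizing method. The values were used as deposited. Of 22206 probe sets 19572 had 1 gene symbol in the platform annotation, 0 had several and 2634 had none. No per-array column was left unused (0). The number of arrays limits the precision.

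Groups came from the sample labels. In limma 3.58.1 (R 4.3.3), lmFit and eBayes gave 1 mean for each of the 4 groups and 1 spread per probe set from all 16 arrays. This fit was also tested on simulated data with the same spread in all 4 groups, so unequal spreads, as for Ngp, were not covered. There were 5 contrasts, and tests were two-sided. SE is limma's moderated standard error, and SD covers a group's 4 arrays. Where a gene has several probe sets, the one of highest mean was to be used, and each measured member had 1.

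The members and lists were chosen with earlier results of these data known. Members are named by role. Values on every array are given for members called in any comparison and for the 2 of each role with the widest range. Of the neighbouring lists, called genes are named first, and not all are. Falls are read beside the receptor probe sets because the table gives no signal over background. Sex was read from Eif2s3y, Kdm5d and Uty (mean above or below 6), as the labels do not give it. Alternatives were quantile normalization, one median per array, a filter on dim probe sets, 1 probe set per gene, array weights, another prior, only the groups compared, another threshold, a block for the replicate number, a covariate for sex, and leaving out each array. Setting receptor medians equal and omitting 6-month cKO arrays 3 and 4 were chosen after seeing the data. Promoter windows are RefSeq's on GRCm38.p6, searched by letter. Python 3.11.15 with matplotlib 3.10.9 drew the figures.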

Additional observations from a re-analysis of the deposited data

How the results depend on the processing

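The number of members called lower in cKO at 6 months, 1 in the main setting, was 2 after quantile normalization and at an adjusted p under 0.1. It was 0 without dim probe sets, with sex as a covariate, with only the arrays compared, and without 6-month cKO arrays 3 and 4. Leaving out each array in turn gave 0 to 5 calls in either direction. Of all probe sets, 1.21% were called lower in the main setting and 1.89% after quantile normalization. The share was 1.96% without dim probe sets, 0.063% with sex as a covariate and 0.063% without 6-month cKO arrays 3 and 4. Such shares were not computed for fits without 1 array or with only the arrays compared. The 9 falls with age in controls became 2 after quantile normalization, 4 with arrays shifted to one median, 0 without dim probe sets and 1 call, a rise, with receptor medians set equal. Leaving out 1 array gave 4 to 9: 5 without 6-month control array 1, 14-month control array 2 or array 3, and 4 without 14-month control array 4. The share of all probe sets called lower in this comparison, 17.3% in the main setting, moved too. It was 12.5% after quantile normalization, 10.6% with arrays shifted to one median, 16.5% without dim probe sets and 4.08% with receptor medians set equal. With receptor medians set equal the direction turned for 13 of the 27 members, of which Cd79a (0.20) and Cd3e (0.008) had been called and Prtn3 (0.60) then was. The 13 falls in cKO became 8 after quantile normalization, 6 without dim probe sets, 7 calls with receptor medians set equal and 2 without 6-month cKO arrays 3 and 4, and leaving out 1 array gave 7 to 16. Here the share of all probe sets called lower, 10.2% in the main setting, was 7.95% after quantile normalization and 13.3% without dim probe sets. It was 3.35% with receptor medians set equal and 6.9% without the pair. The filter on dim probe sets left 9 of 27 members to test. Cd3e and the 9 members that fell in controls were not among those left, so their calls could not recur. Of the 6 called in cKO after the filter, Mpo, Ngp, S100a8, S100a9 and Lcn2 passed it only through 6-month arrays, where they were high. Lyz2 lay above the array median at 14 months only on control array 2 (6.30 against 6.27). It too would not have passed without the 6-month arrays. The calls of these 6 after the filter are therefore no further support. For the other changes the cause was not tested. At 14 months between genotypes, and for genotype by age, 0 members were called in every setting run. Each measured member has 1 probe set, so taking the one of lowest mean changed nothing.

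Groups share replicate numbers, but the numbers did not pair the arrays: of 24 pairs with one number, correlations of deviations ran from -0.29 to 0.27, and 5 were over 0.1. With the replicate number as a block, 1 member was called at 6 months, 0 at 14 months, 7 with age in controls, 12 with age in cKO and 0 for genotype by age. Over all probe sets 1.11% were then called lower at 6 months, 16.7% with age in controls and 9.72% with age in cKO. No measure of signal over background comes with the values, so a transcript at a low value may be present or absent.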

Other observations

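Genes outside the lists followed the neutrophil members over the 16 arrays. The 8 named genes most like the mean of the 11 neutrophil members, by Pearson correlation, were Lilrb4a (0.973), Ctse (0.942), Cd53 (0.917), Hdc (0.915), Ube2l6 (0.908), Lilr4b (0.898), Lcp1 (0.896) and Il1b (0.896). They share arrays and the pair of high arrays with the members, so this is a description. Lilrb4a lay at 9.39 and 10.31 on 6-month cKO arrays 3 and 4, at most at 7.67 on the other arrays and at most at 6.47 at 14 months. Hdc, the enzyme that makes histamine, lay at 8.29 and 7.58 on the pair and at most at 6.25 elsewhere. Il1b, the cytokine interleukin 1 beta, lay at 7.82 and 8.75 on the pair and at most at 6.66 elsewhere.

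The genes most like the mean of the 6 measured erythroid members were Smpd3 (0.931), Itpk1 (0.924), Unc13d (0.908), Pirb (0.904), Sprr2b (0.90), Ttll10 (0.889), Prap1 (0.886) and Dnttip1 (0.882). Smpd3 ran from 8.11 to 9.12 at 6 months and was at most 7.71 at 14 months. Itpk1 was at most 11.07 at 14 months and lay at 12.66 and 12.44 on 6-month cKO arrays 3 and 4. This too is a description and does not mark these as red cell genes. The median age change of the 6 was -0.62 in controls and -0.68 in cKO. With receptor medians set equal it was 0.07 and -0.16. What part of these correlations comes from the fall shared with the receptors was not tested.

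Markers of skeletal muscle stood apart on 1 array that the marrow genes did not. The mean of 10 muscle genes was 7.33 on 14-month control array 4, against at most 5.60 on any other array. On that array the mean of the 11 neutrophil members was 4.65. Mylpf (1.94) and Tnnt3 (2.10) were called higher at 14 months in controls, the group of this array, by limma (adjusted p = 0.0331 and 0.00989). The muscle means of the other 14-month controls were 4.97, 5.60 and 4.90, and the 6-month controls ran from 4.76 to 5.60. Groups did not overlap for Tnnt3, as for 14.9% of all probe sets in that direction. The change of these genes without 14-month control array 4 was not tested.

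The 5 genes of marrow stroma and fat went both ways with age, 3 lower and 2 higher in each genotype, with a median of -0.36 in each. In controls Lepr rose (1.43, adjusted p = 0.00825) and Adipoq fell (-0.71, 0.0153), both by limma. The lowest change of the 5 there was that of Cxcl12 (-1.19, not called). Between cKO and control Cxcl12 differed by 1.73 at 6 months and by -2.08 at 14 months, and was not called at either age. At 6 months its groups did not overlap, as for 4.49% of all probe sets in that direction. For genotype by age 0 of the 5 were called (smallest adjusted p of limma 0.167), so a difference between genotypes was not shown. The 1 called in cKO, Cxcl12, the chemokine that holds blood progenitors and neutrophils in the marrow, fell with age in cKO by 4.99 (log2; SE 0.67, adjusted p = 7.39e-05). It fell by 5.27 without 6-month cKO arrays 3 and 4 (adjusted p = 0.00116) and by 4.47 with receptor medians set equal (0.000142). In that last setting Lepr and Kitl were called higher, as were 30.8% of all probe sets.

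In Dixon's test of the 27 members in 4 groups, 0 of 108 tests put the highest or lowest array apart from the other 3, where chance gives 5.4. With 2 arrays high together, the test for a single array cannot mark either.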
